A study of Mus musculus with 32 samples.

Results

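The 9 Sonic hedgehog pathway genes described here were Gli1, Gli2, Gli3, Ptch1, Smo, Sufu, Hhip, Boc and Atoh1. They were taken by name from the table of read counts, in which each matches 1 of 37310 Ensembl identifiers, from ENSMUSG00000025407 for Gli1, ENSMUSG00000048402 for Gli2 and ENSMUSG00000021318 for Gli3 to ENSMUSG00000021466 for Ptch1, ENSMUSG00000001761 for Smo, ENSMUSG00000025231 for Sufu, ENSMUSG00000064325 for Hhip, ENSMUSG00000022687 for Boc and ENSMUSG00000073043 for Atoh1. Bulk RNA from 14 mouse brain tumor biopsies was compared, 6 from the GMYC model and 8 from the GTML model. In GMYC mice (Glt1-tTA/TRE-MYC) the Glt1 promoter drives a tetracycline-controlled transactivator that switches on a MYC transgene, and in GTML mice the same promoter and transactivator switch on MYCN. Both are Tet-OFF models on an FVB/N background whose tumors arise in the hindbrain, and no sample label gives an age, a doxycycline treatment or a further allele for these biopsies. Total counts were 6218378 to 7279811 in GMYC tumors and 4602294 to 6317404 in GTML tumors. The driver genes followed the labels, with Myc at 33.3 to 165 CPM (counts per 1000000 of the TMM-scaled library) in GMYC and 2.59 to 8.66 CPM in GTML tumors, and Mycn at 118 to 191 CPM in GTML and 7.64 to 34.3 CPM in GMYC tumors.

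Sonic hedgehog is a secreted ligand that drives the division of granule neuron progenitors in the developing cerebellum, and overactive signaling defines the SHH subgroup of medulloblastoma. Without ligand, the receptor Ptch1 keeps Smo out of the primary cilium and Gli3 is cut to a repressor. With ligand, Smo enters the cilium and Sufu releases the Gli factors, Gli2 turns on target genes, and the targets include Gli1, Ptch1 and Hhip. In these tumors the transgene acts through MYC or MYCN in Glt1-expressing cells, and the comparison of the models shows how much of this machinery each of them transcribed.

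Per length of exon, Sufu, Ptch1, Smo and Gli2 held the 4 highest levels in both models, and Gli1, Hhip and Atoh1 were at the low end. In GMYC tumors the median levels were 7.41 CPM per kb for Sufu, 6.62 for Ptch1, 5.25 for Smo and 4.59 for Gli2, and then 1.88 for Boc, 1.71 for Gli3, 0.856 for Hhip and 0.188 for Gli1. In GTML tumors Smo stood first at 9.19 CPM per kb, followed by 7.86 for Sufu, 7.49 for Ptch1, 5.38 for Gli2, 3.09 for Boc, 0.668 for Gli3, 0.579 for Gli1 and 0.438 for Hhip. In both orders the ranges over tumors of neighbouring genes overlapped. Taking the longest transcript in place of all exons exchanged Boc and Gli3 in GMYC tumors. Atoh1 came last in both.

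The sequences before the starts of Gli2, Gli3 and Smo are shown because these genes were highest together in a single tumor, GTML tumor 2, and that of Ptch1 because it was not. Each run is the 250 bases upstream of the RefSeq start (GRCm38.p6), 5′ to 3′ on the strand of the gene, and capitals mark the core of the Gli binding site, CCACCC or its reverse complement GGGTGG. The positions are chr1:119053620-119053869 (minus strand) for Gli2, chr13:15463473-15463722 (plus) for Gli3, chr6:29735247-29735496 (plus) for Smo and chr13:63565736-63565985 (minus) for Ptch1.
Gli2: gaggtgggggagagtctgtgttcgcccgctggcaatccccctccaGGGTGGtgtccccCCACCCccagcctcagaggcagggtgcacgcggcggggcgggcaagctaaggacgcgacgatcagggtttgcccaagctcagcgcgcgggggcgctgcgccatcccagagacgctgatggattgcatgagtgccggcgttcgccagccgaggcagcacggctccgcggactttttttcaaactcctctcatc
Gli3: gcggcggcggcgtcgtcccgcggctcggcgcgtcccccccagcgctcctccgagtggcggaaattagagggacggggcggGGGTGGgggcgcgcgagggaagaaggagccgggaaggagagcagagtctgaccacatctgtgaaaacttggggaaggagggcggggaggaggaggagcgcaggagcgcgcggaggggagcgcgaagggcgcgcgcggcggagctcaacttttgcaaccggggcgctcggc
Smo: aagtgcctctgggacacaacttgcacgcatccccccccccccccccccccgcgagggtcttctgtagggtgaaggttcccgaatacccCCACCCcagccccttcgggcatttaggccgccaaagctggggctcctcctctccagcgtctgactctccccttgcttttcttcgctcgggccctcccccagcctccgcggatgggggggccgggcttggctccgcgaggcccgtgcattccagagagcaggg
Ptch1: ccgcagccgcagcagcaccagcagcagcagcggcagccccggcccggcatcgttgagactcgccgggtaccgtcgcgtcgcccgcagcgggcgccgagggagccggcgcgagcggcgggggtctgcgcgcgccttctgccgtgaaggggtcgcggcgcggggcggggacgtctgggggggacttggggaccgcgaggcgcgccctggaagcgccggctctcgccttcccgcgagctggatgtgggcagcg
Gli2 had 2 cores, which begin 205 and 192 bases before its start, Gli3 had 1 at 170 bases and Smo 1 at 162 bases, and the Ptch1 window had 0. Of the 7 members with a RefSeq window (all but Gli1 and Boc), 4 held a core, the other being Hhip at 158 bases, beside 28.1% of 32851 promoter windows of this length. The 9 letters of the full site, GACCACCCA or TGGGTGGTC, which hold the core, were found in 0 of the 7 and in 0.225% of all windows. This comparison was not matched for base content, and the 7 member windows held 54.0 to 78.4% G and C. For Smo and Hhip the bases just after the start were not found whole in an annotated transcript. Whether their windows lie at a start used in these tumors was not tested. The marked cores are matches of letters and not measured binding.

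The level of each gene in each tumor sets 1 sample apart from the others.

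**Figure D1:**
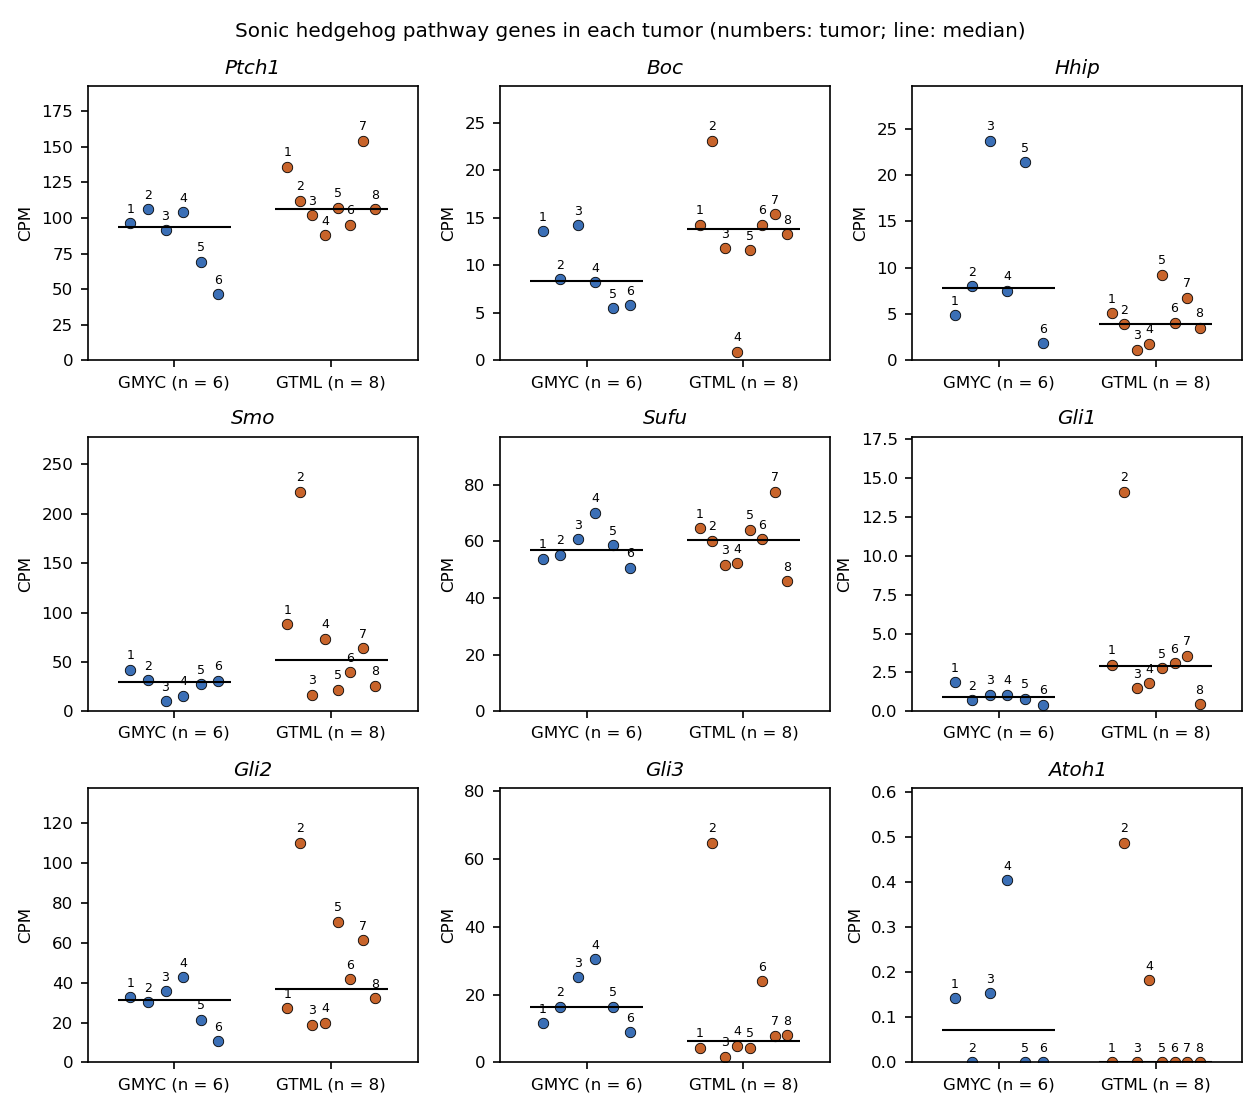
Expression of the 9 genes in CPM (y axis, from 0) in 6 GMYC and 8 GTML tumors, with 1 point per tumor marked by its number and a line at the median of the model. GTML tumor 2 is the highest point for Smo, Gli1, Gli2, Gli3 and Boc, and lies inside the range of the others for Ptch1, Sufu and Hhip.

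GTML tumor 2 had the highest level of all 14 tumors for 5 of the 8 genes that passed the filter on low counts, Gli1, Gli2, Gli3, Smo and Boc. Among all tested genes 13.4% were highest in this tumor, the largest share of any tumor. Its CPM was over 2 times the median of the 7 other GTML tumors for 4 of the 8, Gli1, Gli2, Gli3 and Smo, as it was for 13.9% of all tested genes. The ratio to that median was 13.2 for Gli3, 5.62 for Smo, 5.05 for Gli1, 3.41 for Gli2 and 1.74 for Boc, and it was 1.06 for Ptch1, 0.992 for Sufu and 0.959 for Hhip. The genes that stood out therefore included both the activating and the repressing Gli factors together with Smo, while Ptch1 and Hhip, which are targets as well as inhibitors, stayed at the level of the other GTML tumors. Gli1, at 5.05 times that median, is a target too, so the targets among the members did not move together in this tumor. This tumor is 1 sample, and these ratios are given without a test. The comparison of each member is therefore given with it and without it.

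Among the receptors and ligand-binding proteins, Ptch1, which holds Smo inactive and is itself a target, ranged from 46.5 to 106 CPM in GMYC tumors (median 93.8) and from 87.7 to 154 CPM in GTML tumors (median 106). The models overlapped, with 5 of 8 GTML tumors above the highest GMYC tumor, and GMYC tumors 5 and 6 were below every GTML tumor. The log2 fold change, given throughout as GTML over GMYC, was 0.39 ± 0.18 (SE; edgeR quasi-likelihood test, adjusted p = 0.118) and 0.40 ± 0.19 without GTML tumor 2. It passed the threshold of an adjusted p under 0.05 when a term for the share of small nucleolar RNA reads was added (0.63, adjusted p = 0.0292). That share was 0.366% or more of the counts in 4 GMYC and 2 GTML tumors and 0.272% or less in the other 8 tumors, so it moved with the model.

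Boc, a coreceptor that presents the ligand to Ptch1, ranged from 5.47 to 14.2 CPM in GMYC (median 8.39) and from 0.91 to 23.1 CPM in GTML tumors (median 13.8). GTML tumor 4 was far below every other tumor, and the remaining GTML tumors lay at or above 11.6 CPM. The log2 fold change of 0.49 ± 0.44 did not pass (adjusted p = 0.425), nor did the 0.32 ± 0.44 without GTML tumor 2 (adjusted p = 0.591).

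Hhip, a decoy that binds hedgehog ligands at the membrane and is a target of the pathway, ranged from 1.84 to 23.7 CPM in GMYC (median 7.77) and from 1.16 to 9.24 CPM in GTML tumors (median 3.98). GMYC tumors 3 and 5, at 23.7 and 21.4 CPM, were above every GTML tumor, and the other GMYC tumors were within the GTML range. The log2 fold change was -1.33 ± 0.52 with an adjusted p of 0.077, and -1.31 ± 0.56 without GTML tumor 2 (adjusted p = 0.0841). Leaving out GMYC tumor 6, the lowest of its model, gave an adjusted p of 0.0373.

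Smo, the membrane protein that carries the signal into the cell once Ptch1 releases it, ranged from 10.5 to 42.3 CPM in GMYC (median 29.5) and from 16.9 to 222 CPM in GTML tumors (median 51.6). In GTML tumors it spread over the widest range of the 8 genes in CPM, with 4 tumors above every GMYC tumor and tumors 3, 5, 6 and 8 within the GMYC range. The log2 fold change was 1.38 ± 0.52 (adjusted p = 0.0698) and 0.83 ± 0.40 without GTML tumor 2 (adjusted p = 0.127). Without GTML tumor 3, the lowest of its model, the adjusted p was 0.0436.

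Sufu, which binds the Gli factors in the cytoplasm and restrains them, varied least relative to its mean. It ranged from 50.8 to 70.1 CPM in GMYC (median 57.0) and from 46.0 to 77.5 CPM in GTML tumors (median 60.5), and its log2 fold change was 0.03 ± 0.13 (adjusted p = 0.862), with the same value without GTML tumor 2.

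Of the transcription factors, Gli1, an activator that is also the standard readout of hedgehog signaling, was the only member that passed the test. It was at 0.424 to 1.86 CPM in GMYC tumors (median 0.937) and at 0.457 to 14.1 CPM in GTML tumors (median 2.89). In 5 of 8 GTML tumors it was above the highest GMYC tumor, in tumors 3 and 4 it was within the GMYC range, and tumor 8 was next to the lowest GMYC tumor. Its log2 fold change was 1.92 ± 0.61 (adjusted p = 0.037). These are low levels, with 3 to 87 counts per tumor. The 6 GMYC tumors together held 41 counts of Gli1, the 7 GTML tumors other than 2 held 87, and GTML tumor 2 alone held 87.

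The call for Gli1 depended on single tumors. Without GTML tumor 2 the log2 fold change was 1.20 ± 0.45 and the adjusted p 0.0531, and without GMYC tumor 2, 3, 4, 5 or 6 or GTML tumor 5 or 7 the adjusted p was also above 0.05, up to 0.0728 without GMYC tumor 5. The direction held with each of the 14 tumors left out (1.20 to 2.18), and limma-voom gave 1.43 with an adjusted p of 0.111. The exons of Gli1 share 62 bases with those of Arhgap9 and 265 with those of an antisense gene on the opposite strand, and the strand setting of the counting is not given in the sources used here. Gli3 and Hhip share 188 and 175 exon bases with noncoding genes on the opposite strand. Arhgap9 was at 1.16 to 5.79 CPM and was highest in GTML tumor 8, where Gli1 was lowest among GTML tumors. In GTML tumor 2, where Gli1 was highest, Arhgap9 was at 4.55 CPM. The part of the overlapping genes in the Gli1 counts was not tested.

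Gli2, the main activator of hedgehog targets, ranged from 10.7 to 42.7 CPM in GMYC (median 31.5) and from 18.9 to 110 CPM in GTML tumors (median 37.0). GTML tumors 2, 5 and 7 were above every GMYC tumor and the other 5 were within the GMYC range. The log2 fold change was 0.72 ± 0.40 (adjusted p = 0.195), and 0.42 ± 0.35 without GTML tumor 2 (adjusted p = 0.369).

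Gli3, which acts mainly as the repressor of the pathway, ranged from 8.9 to 30.5 CPM in GMYC (median 16.4) and from 1.66 to 64.8 CPM in GTML tumors (median 6.41). Of the GTML tumors 6 were below the lowest GMYC tumor, while tumors 2 and 6, at 64.8 and 24.0 CPM, were within or above the GMYC range. The log2 fold change was -0.27 ± 0.65 (adjusted p = 0.785) and -1.20 ± 0.49 without GTML tumor 2 (adjusted p = 0.0718). The estimate thus depended on a single tumor, and limma-voom without that tumor called Gli3 lower in GTML tumors (-1.49, adjusted p = 0.022). With the small nucleolar RNA term and all tumors the value was 0.04, so its sign depended on that term.

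Gli2 and Gli3 can be compared within each tumor per length, which removes differences in depth. Gli3 was below Gli2 in 14 of 14 tumors. The ratio of Gli3 to Gli2 was 0.25 to 0.594 in GMYC tumors (median 0.509) and 0.0437 to 0.423 in GTML tumors (median 0.146). In 6 of 8 GTML tumors it was below the lowest GMYC tumor, and the exceptions were again tumors 2 and 6, at 0.423 and 0.411. This ratio was picked after the levels had been seen and is given without a test.

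**Figure D2:**
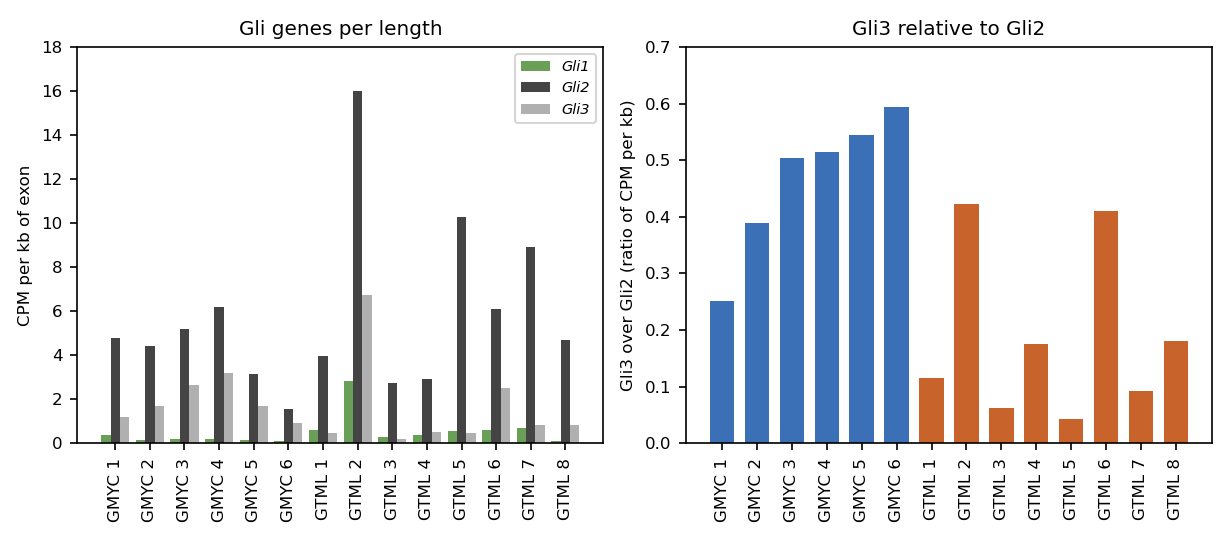
Left, Gli1, Gli2 and Gli3 in each tumor in CPM per kb of exon (y axis, from 0), 1 bar per gene. Right, the ratio of Gli3 to Gli2 in the same unit, with GMYC tumors in blue and GTML tumors in orange, which is 0.25 or more in the GMYC tumors and 0.18 or less in the GTML tumors other than 2 and 6.

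Atoh1, the basic helix-loop-helix factor of granule neuron progenitors and of SHH medulloblastoma, was close to absent. It had 0 to 3 counts per tumor, 5 in total over the GMYC and 4 over the GTML tumors, did not pass the filter and was not tested. A tumor with 0 counts allows a level of up to 3 counts, which is 0.404 to 0.645 CPM in these tumors. GTML tumor 2 had 3 Atoh1 counts beside its 87 of Gli1.

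In all, 1 of the 8 tested members was called higher in GTML tumors (12.5%, with 11.5% of all tested genes) and 0 were called higher in GMYC tumors (9.71% of all tested genes). At an unadjusted p under 0.05, Gli1 (0.00641), Smo (0.0182), Hhip (0.0213) and Ptch1 (0.0419) passed with all tumors. DESeq2 called Gli1 and Smo higher and Hhip lower in GTML tumors, and limma-voom called 0. Without GTML tumor 2 the edgeR test called 0 members, with 15.6% of all tested genes then called higher and 15.1% lower in GTML tumors. At an unadjusted p under 0.05 it then had 1 member higher and 2 lower. The shares of all tested genes at an unadjusted p under 0.05, by DESeq2 or by limma-voom are not given here. The member counts at that threshold and by those tools are therefore not read as particular to the pathway. For 0 of the 8 were all tumors of one model above all of the other, which was so for 2.14% of all tested genes with GTML above and for 2.48% with GMYC above. The median log2 fold change was 0.44 over the 8 members and 0.04 over all tested genes. In bulk RNA a change in the share of cells that express a gene and a change in its level per cell cannot be told apart. The methods also state that part of the GTML reads came from earlier work, and no label says which tumors these were, so the occasion of sequencing was not entered in a fit.

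**Figure D3:**
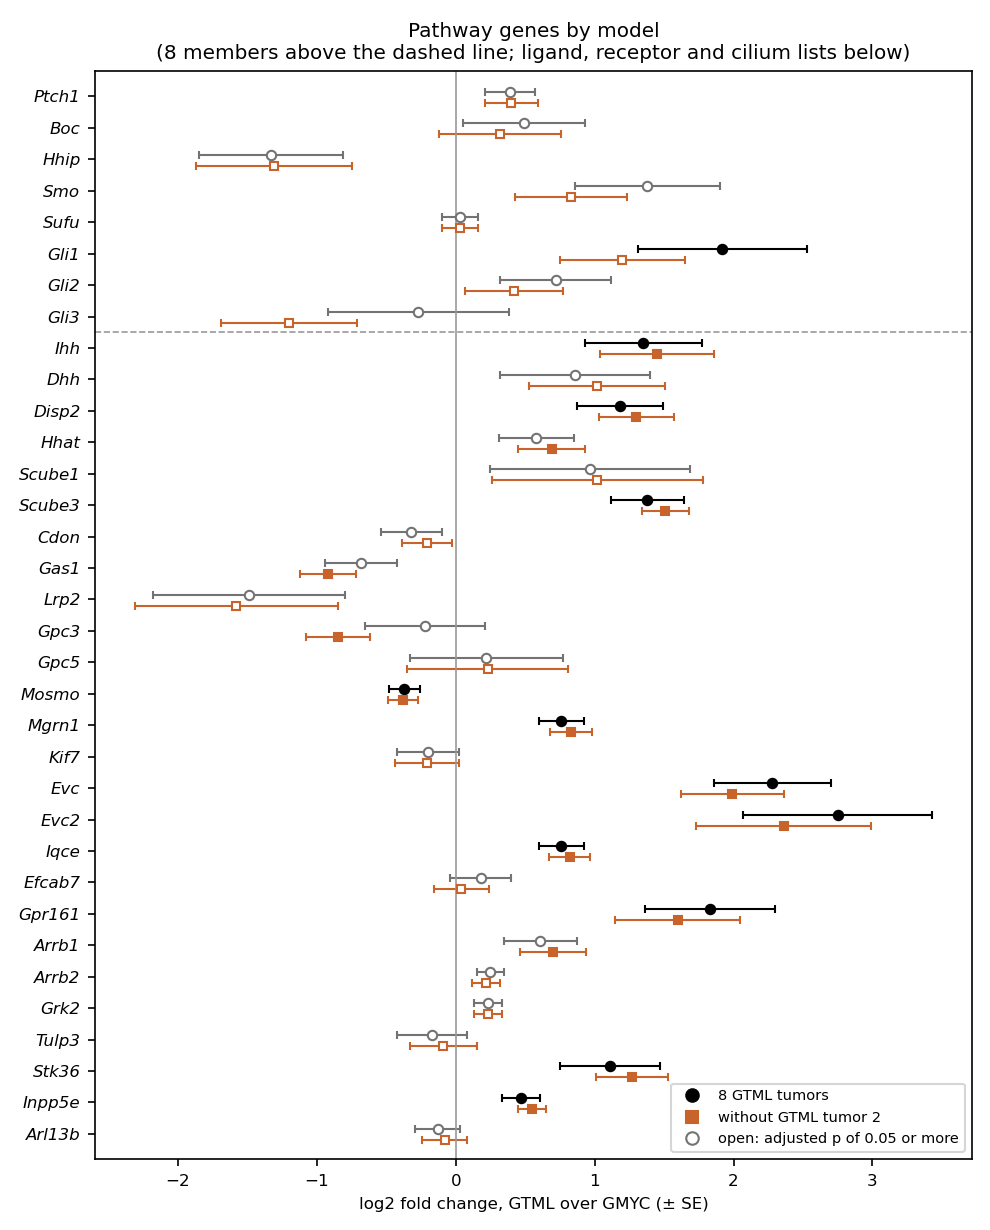
Log2 fold change of GTML over GMYC (x axis, ± SE) for the 8 tested members above the dashed line and for the ligand, receptor and cilium genes below it, with all tumors (circles) and without GTML tumor 2 (squares), filled where the adjusted p was under 0.05. Gli1 is the only filled member, at 1.92, and Evc and Evc2 are the farthest right of the cilium genes, at 2.28 and 2.75.

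The other genes of the pathway were read from lists of ligands, receptors, ciliary relay proteins and Gli-modifying enzymes. Of 51 tested genes, 11 were called higher in GTML tumors (21.6%) and 4 higher in GMYC tumors (7.84%), beside 11.5% and 9.71% of all tested genes. The test called 14 higher and 6 lower in GTML tumors once GTML tumor 2 was left out, beside 15.6% and 15.1% of all tested genes.

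The ligands themselves were scarce. Shh had 0 counts in all 6 GMYC tumors, which allows up to 0.482 CPM (3 counts) in any of them, and at most 0.364 CPM in GTML tumors with 7 counts in total, and it was not tested. Ihh was at 0.287 to 1.12 CPM in GMYC (median 0.594) and 0.728 to 3.01 CPM in GTML tumors (median 1.64), and was called higher in GTML tumors (1.35 ± 0.42, adjusted p = 0.0345). Its 6 highest GTML tumors were above every GMYC tumor, and GTML tumor 2 was not among them at 0.812 CPM. The call was lost without GMYC tumor 1, 3, 4 or 6 or GTML tumor 5, 7 or 8 (adjusted p up to 0.0728). Dhh ranged from 0.764 to 5.2 CPM in GMYC and from 0.487 to 7.31 CPM in GTML tumors, lowest in GTML tumor 2 (0.86 ± 0.54, adjusted p = 0.256, and 1.54, adjusted p = 0.0456, without GMYC tumor 2), and its exons share 1107 bases with an antisense gene and 546 with Rhebl1. Disp2, a relative of the transporter that releases the ligand, rose (1.18 ± 0.31, adjusted p = 0.0166), though it was not called with the small nucleolar RNA term (1.05, adjusted p = 0.0725). Scube3, of a family that helps the ligand leave the cell, rose as well (1.38 ± 0.26, adjusted p = 0.00477). Both were lowest among GTML tumors in tumor 2, at 41.6 and 16.1 CPM. Thus 3 of 6 tested ligand and release genes were called higher in GTML tumors (beside 11.5% of all tested genes), and tumor 2, with the most Gli1, had the lowest levels of Dhh, Disp2 and Scube3 among GTML tumors.

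Of the receptor and coreceptor genes described here, 1 rose and 1 fell. Some of these genes were named because they were called, so these counts are not shares of the list. Mgrn1, a ubiquitin ligase that lowers the amount of Smo at the membrane, was higher in GTML tumors (0.76 ± 0.16, adjusted p = 0.00753). Mosmo, which also restrains Smo, was lower (-0.37 ± 0.11, adjusted p = 0.0253), but was not called without GMYC tumor 1 (0.054) or 3 (0.0564). GTML tumor 2, a single biopsy, had the lowest Mgrn1 RNA of the GTML tumors, at 69.2 CPM, and the highest Smo RNA. Between the models both genes had the higher median in GTML tumors. A link between their levels was not tested. The coreceptor Cdon, with medians of 78.5 and 64.9 CPM, did not pass (-0.32 ± 0.22, adjusted p = 0.29), but was called lower in GTML tumors with the small nucleolar RNA term (-0.69, adjusted p = 0.0224). The coreceptor Gas1 was below the lowest GMYC tumor in 7 of 8 GTML tumors and highest of all in GTML tumor 2, at 35.9 CPM. Its log2 fold change was -0.68 ± 0.26 (adjusted p = 0.0695) with that tumor and -0.92 ± 0.20 (adjusted p = 0.00558) without it.

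The ciliary relay had 6 of 13 tested genes called higher in GTML tumors (46.2%, beside 11.5% of all tested genes) and 7 not called. Evc and Evc2, partners that tether Smo signaling at the base of the cilium and whose RefSeq starts (GRCm38) lie 1597 bases apart on chromosome 5 in opposite directions, changed most. Evc was at 3.38 to 16.9 CPM in GMYC (median 7.71) and 16.9 to 90.3 CPM in GTML tumors (median 32.0), and the models did not overlap, if narrowly (2.28 ± 0.42, adjusted p = 0.00461). Evc2 had medians of 4.2 and 46.4 CPM (2.75 ± 0.68, adjusted p = 0.0132). GMYC tumor 2, at 33.3 CPM of Evc2, was within the GTML range, and GTML tumor 2 was highest for both, at 90.3 and 152 CPM. Without GTML tumor 2 the values were 1.99 ± 0.37 for Evc and 2.36 ± 0.63 for Evc2, and both passed. Without GMYC tumor 2 that of Evc2 was 4.0 (adjusted p = 0.001).

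Iqce, which anchors the Evc complex (0.76 ± 0.16, adjusted p = 0.00659), and Inpp5e, a ciliary phosphatase (0.47 ± 0.14, adjusted p = 0.0239), also rose. So did Gpr161, a ciliary receptor that keeps the pathway off by raising cyclic AMP (1.83 ± 0.47, adjusted p = 0.0149), and Stk36, a kinase related to the fly protein fused (1.11 ± 0.36, adjusted p = 0.0394). The genes that rose therefore include some that promote and some that restrain the signal. Inpp5e was not called without GMYC tumor 3 or 5 or GTML tumor 7 (adjusted p up to 0.0547), and Stk36 was not called in 10 of the 14 fits that left out 1 tumor (log2 fold change 0.94 to 1.27, adjusted p up to 0.0893). Inpp5e shares 874 exon bases with Pmpca on the opposite strand. Kif7, the kinesin of the cilium tip that organises the Gli proteins, had medians of 40.4 and 36.7 CPM and did not pass (-0.20 ± 0.22, adjusted p = 0.507).

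The 23 enzymes and adaptors that modify or degrade Gli proteins had a median log2 fold change of 0.0. Of them 20 were not called and 3 were called lower in GTML tumors (13.0%, beside 9.71% of all tested genes). The 3 were Csnk1a1, a casein kinase that phosphorylates the Gli proteins (-0.36 ± 0.07, adjusted p = 0.00639), Csnk1g2 (-0.43 ± 0.13, adjusted p = 0.031) and Prkar1a, a regulatory subunit of protein kinase A (-0.42 ± 0.11, adjusted p = 0.0181). Csnk1g2 was not called without GMYC tumor 3, 4 or 5 or GTML tumor 5 (adjusted p up to 0.0823).

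Known hedgehog targets gave 3 calls among 14 tested genes, Gli1, Ccnd1 and Sfrp1, all higher in GTML tumors. That is 21.4%, beside 11.5% of all tested genes, and none were called lower, beside 9.71% of all tested genes. Ccnd1, the cyclin D1 gene, was at 14.4 to 75.7 CPM in GMYC (median 28.3) and 86.3 to 156 CPM in GTML tumors (median 103), with no overlap (1.71 ± 0.29, adjusted p = 0.00323). Sfrp1, a secreted Wnt antagonist used as a marker of SHH medulloblastoma, was at 0.141 to 1.21 CPM in GMYC and 1.29 to 10.4 CPM in GTML tumors (2.77 ± 0.56, adjusted p = 0.00632). These ranges did not overlap, but the gap rests on few reads. GMYC tumor 4 had 9 counts (1.21 CPM), and GTML tumors 5 and 3 had 6 and 8 counts (1.29 and 1.33 CPM). The exons of Ccnd1 share 1100 bases with LTO1 on the opposite strand. Ccnd2 was not called (-0.21 ± 0.26, adjusted p = 0.572). In all 11 of the tested targets, Ptch1 and Hhip among them, did not pass, and the median of the list was 0.07. Without GTML tumor 2 the calls were 2, since Gli1 did not pass, and 15.6% of all tested genes were then called higher. GTML tumor 2 was highest of all tumors for 1 of the 14, Gli1, and its Ccnd1 (134 CPM) and Sfrp1 (8.6 CPM) were within the range of the other GTML tumors.

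**Figure D4:**
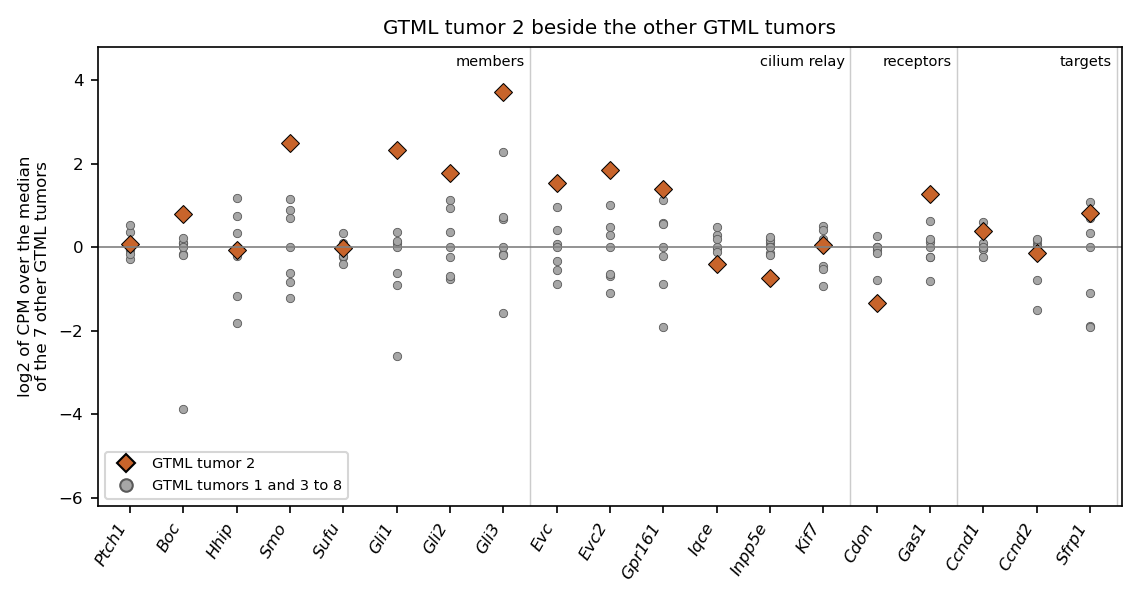
Log2 of the CPM of each GTML tumor over the median of GTML tumors 1 and 3 to 8 (y axis), for the 8 members and for 11 genes of the cilium, receptor and target lists. Tumor 2 (diamonds) is above the 7 others (circles) for Boc, Smo, Gli1, Gli2, Gli3, Evc, Evc2, Gpr161 and Gas1, and below them for Inpp5e and Cdon.

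Markers of human SHH medulloblastoma and of its cell of origin were called in both directions. Of 7 tested SHH markers, Pdlim3 (2.88 ± 0.71, adjusted p = 0.0131), Sfrp1 and Gli1 were higher in GTML tumors. The shares called higher and lower were 42.9% and 14.3%, beside 11.5% and 9.71% of all tested genes. Sfrp1 and Gli1 are also counted among the targets, so these lists share calls. Without GTML tumor 2, 2 of the 7 were called higher and 1 lower, beside 15.6% and 15.1% of all tested genes. Without GTML tumor 3, at 55.5 CPM with the next at 8.45, Pdlim3 was at 1.85 (adjusted p = 0.0116), and with Y-linked expression as a covariate it was not called (1.73, adjusted p = 0.128). Eya1, a phosphatase and transcriptional cofactor, was far higher in GMYC tumors, at 8.57 to 259 CPM (median 153) against 0.86 to 6.17 CPM, with no overlap (-5.75 ± 0.57, adjusted p = 0.000113). Of 18 tested genes of the granule neuron lineage, Nhlh2 (3.34 ± 0.61, adjusted p = 0.00419) and Barhl1 (1.63 ± 0.37, adjusted p = 0.00937) rose (Nhlh2 by 4.08 without GMYC tumor 5), Neurod1 fell by 0.23 (SE 0.07, adjusted p = 0.0426), and 15 did not pass. For this list the shares called higher and lower were 11.1% and 5.56%, near or below those of all tested genes. Neurod1 was called in 3 of the 14 fits that left out 1 tumor (adjusted p up to 0.0975), and shares 201 exon bases with Cerkl.

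Other cell types in the biopsies were followed by their markers, and the single marker genes given here were picked after their values were seen. The summed level of 11 astrocyte and Bergmann glia markers was 823 to 1495 CPM in GMYC and 593 to 995 CPM in GTML tumors, lowest in GTML tumor 2, and 1 of the 11, Hopx, was called lower in GTML tumors (9.09%, beside 9.71% of all tested genes). Most of the sum is Slc1a2, at 255 CPM in GTML tumor 2 against a median of 659 CPM in the other GTML tumors. The list was mixed in GTML tumor 2 relative to the median of the other GTML tumors. Gja1, Hopx and Slc1a3 were 6.81, 4.78 and 2.53 times that median, Gja1 being highest there of all tumors. Aldoc, Gfap and S100b were at 1.33, 1.02 and 0.982 times, and Aldh1l1, Aqp4, Fabp7 and Gdf10 at 0.66, 0.492, 0.317 and 0.0713 times. Mature granule neuron markers summed to 142 to 563 CPM in GMYC and 146 to 262 CPM in GTML tumors, with tumor 2 the lowest GTML tumor, and 3 of 9 were called lower (Cbln3, Fat2 and Etv1, 33.3% beside 9.71% of all tested genes). These calls rested on GMYC tumor 1, which held 436 of the 524 GMYC counts of Cbln3 and 1178 of the 1305 of Fat2. Without it the log2 fold changes were -1.16, -0.93 and -0.94 (adjusted p = 0.345, 0.541 and 0.166), and with it the medians were higher in GTML tumors for Cbln3 (1.11 against 0.906 CPM) and Fat2 (1.78 against 0.493 CPM). Fibroblast and meningeal markers summed to 73.0 to 802 CPM in GMYC and 58.5 to 1136 CPM in GTML tumors. GTML tumor 2 was the second highest there, at 955 CPM.

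Purkinje cell markers summed to 118 to 456 CPM in GMYC and 119 to 336 CPM in GTML tumors. GTML tumor 2 was the highest of its model, where Itpr1 gave 270 CPM, while the defining marker Pcp2 was lowest of all tumors there at 1.95 CPM. Choroid plexus markers summed to 6.59 to 12 CPM in GMYC and 11.1 to 27.1 CPM in GTML tumors. In GTML tumor 2, the highest, Aqp1 gave 21.4 CPM and the defining marker Ttr 0.325 CPM. Microglia markers (161 to 270 CPM in GMYC, 88.8 to 348 CPM in GTML), endothelial markers (71.5 to 207 and 141 to 349 CPM) and oligodendrocyte markers (157 to 378 and 160 to 380 CPM) were within the range of the other tumors in GTML tumor 2, at 244, 173 and 210 CPM. Of these lists Kdr and Mog were called higher and Olig1 and Olig2 lower in GTML tumors, of which Mog was called in all 14 fits that left out 1 tumor, Kdr in 5, Olig1 in 8 and Olig2 in 10. The edgeR test called 0 of 6 fibroblast, 0 of 8 Purkinje, 0 of 8 microglia and 0 of 3 choroid plexus markers, with 0, 3, 0 and 2 at an unadjusted p under 0.05, and by DESeq2 3 Purkinje markers and none of the other lists. Over all tested genes the edgeR test called 11.5% higher and 9.71% lower in GTML tumors. The shares of all tested genes at an unadjusted p under 0.05 or by DESeq2 are not given here. The part of these cell types in the levels of the hedgehog genes was not tested.

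Among the genes whose pattern over the 14 tumors was most like that of Gli1, by Pearson's r of log2 CPM among 19597 genes, were Terf2 (0.92), Ptchd4 (0.90), Ddhd2 (0.90) and D17Wsu92e (0.88). Without GTML tumor 2 the values for these 4 genes were 0.93, 0.90, 0.79 and 0.73. Of the members, r with Gli1 was 0.74 for Gli2, 0.72 for Smo, 0.54 for Ptch1, 0.48 for Sufu, 0.39 for Boc, 0.24 for Gli3 and -0.08 for Hhip. Without GTML tumor 2 they were 0.58 for Gli2, 0.47 for Smo, 0.63 for Ptch1 and -0.26 for Gli3, and Sufu was at 0.63 as well. These are descriptions over tumors that share the difference between the models and in depth, and no p is given.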

How the data were processed

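The tumors (6 GMYC, 8 GTML) were sequenced as bulk RNA on an Ion Proton instrument. The authors aligned the reads to mouse mm9 with STAR and Bowtie and deposited raw counts per gene made with featureCounts (Subread 1.5.2, per the submitters' notes) on a GENCODE annotation. The handling of duplicates and strand is not given in the sources used here. A further 18 columns match no sample label and were not used. Symbols and exon lengths came from a GRCm38 annotation (32620 of 37310 genes, 87.4%).

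The 2 models were tested against each other on 21024 genes, those whose CPM exceeded 1 in 3 or more tumors, by the quasi-likelihood method of edgeR 4.0.16 (R 4.3.3, TMM factors, Benjamini-Hochberg adjustment over all of them, called at an adjusted p under 0.05). All 8 GTML tumors were kept, since the labels do not say which one the study left out of its own comparison. The paper reports that a single GTML tumor clustered with the SHH subgroup, and it compared the GTML tumors classed as Group 3. The main comparison here therefore includes that SHH-like tumor, and no label says which one it is. Alternatives were DESeq2 1.42.0, limma-voom (limma 3.58.1), other scalings, filters and covariates, a replicate block and each tumor left out. Leaving out GTML tumor 2 together with limma-voom or with the small nucleolar RNA term and the covariate from Y-linked genes were chosen after seeing the data. The code was tested on simulated counts. Figures were drawn with matplotlib 3.10.9.

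The members and lists were chosen with earlier results of these data known. The genes named were the 9 members, Shh, Ihh, Dhh, Cdon, Gas1, Kif7, Ccnd1, Ccnd2 and Sfrp1, up to 5 called genes of smallest p per list, and the 5 genes most like Gli1, and some genes that this rule names are not reported here. Overlapping genes, single marker genes, Stk36 and the ratios were added after their values were seen. Disp1, of the ligand list, matched no row. No label says that each biopsy came from a separate animal, so p-values measure the spread between biopsies. Intervals from counts were not computed, since they would cover counting error alone.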

Additional observations from a re-analysis of the deposited data

Results flagged for a closer look

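Of 73 groups of tumors checked for a tumor far from the rest of its model (Dixon's criterion at 95%), 14 were marked. For normally distributed values the criterion marks about 1 in 20, or 3.65. It was applied here to untransformed CPM of genes named partly by their calls, so 3.65 is not a chance rate for these groups. Among the members 4 of 18 groups were marked, all by GTML tumor 2 being the highest of its model. Gli1 was at 14.1 CPM there with the next GTML tumor at 3.58, Gli3 at 64.8 with the next at 24.0, and Smo at 222 with the next at 88.0. Atoh1 was at 0.487 CPM with the next at 0.182, which rests on 3 counts.

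Outside the members, GTML tumor 2 was lowest of its model for Disp2 (41.6 CPM, next 96.4) and Mgrn1 (69.2, next 101), and highest for Nhlh2 (108, next 54.4). GMYC tumor 2 was highest of its model for Dhh (5.2 CPM, next 1.45), Ccnd1 (75.7, next 35.0), Evc2 (33.3, next 5.11) and Pdlim3 (3.93, next 1.48). The other 3 marks were Csnk1a1 at 492 CPM in GMYC tumor 6 (next 399), Pdlim3 at 55.5 in GTML tumor 3 (next 8.45) and Nhlh2 at 13.8 in GMYC tumor 5 (next 5.34). Groups that share a tumor are not independent of each other.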

How the results depend on the processing

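For the log2 fold changes of 35 named genes, 979 pairs of a gene and an alternative setting were compared with the main test. Of these pairs 850 kept direction and side of the threshold, 104 no longer passed, 17 newly passed and 8 reversed. The reversals were Gli3 with the small nucleolar RNA term (0.04) and in the tumors of higher small nucleolar RNA share (0.74), Sufu without GMYC tumor 6 (-0.00) and without GTML tumor 7 (-0.03), Gas1 (0.09) and Csnk1g2 (0.02) in the tumors of higher share, and Ccnd2 in those of lower share (0.26) and with the term but no GTML tumor 2 (0.09). The cause was not tested.

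With the small nucleolar RNA term Ihh, Disp2, Mosmo, Inpp5e and Csnk1g2 were not called (adjusted p 0.0675 to 0.097), and with the Y-linked covariate Gli1, Ihh, Disp2, Mosmo, Evc2, Inpp5e, Prkar1a, Csnk1g2, Pdlim3 and Neurod1 were not (0.0618 to 0.195).

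Members called higher in GTML tumors numbered 1 in the main test, 2 with DESeq2, with the small nucleolar RNA term and with that term but no GTML tumor 2, and 0 with limma-voom, with limma-voom and no GTML tumor 2, in the tumors of higher share, with the Y-linked covariate and at an adjusted p under 0.01 with an absolute log2 fold change over 1. With each tumor left out they numbered 0 to 2. Members called higher in GMYC tumors numbered 0, and 1 with DESeq2 and with limma-voom and no GTML tumor 2, and 0 to 1 with a tumor left out. Other pathway genes called higher in GTML tumors numbered 11, and 7 with the small nucleolar RNA term, 0 in the tumors of higher share, 6 with the Y-linked covariate and 2 at the stricter threshold, and 8 to 14 with a tumor left out. Those called higher in GMYC tumors numbered 4, and 0 in the tumors of higher share, 1 with the Y-linked covariate, 0 at the stricter threshold and 2 to 6 with a tumor left out, 2 being the count without GMYC tumor 3. Fewer tumors enter the fits by share of small nucleolar RNA (6 and 8). Apart from the main test and the fit without GTML tumor 2, the shares of all tested genes called are not given here. A loss of calls in these lists can therefore not be told apart from a loss of calls over all genes.

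With the replicate number of the labels as a replicate block, the same counts were 0 and 0 for the members and 2 and 0 for the other pathway genes. The share of all tested genes called with this block is not given here either. Deviations of same-numbered tumors from their model correlated at 0.24, -0.0242, -0.0436, -0.212, 0.0253 and -0.142, so the numbers were not taken to pair tumors. Depth limits genes of few counts, such as Gli1, Atoh1, Shh, Ihh and Sfrp1.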

Other observations

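GTML tumor 8 was at the other end from GTML tumor 2 for Gli1. It held 0.457 CPM, within the range of the GMYC tumors, while its Ptch1 was at 106 CPM and its Gli2 at 32.2 CPM, near the GTML medians. The ratio of Gli1 to Ptch1 per kb was 0.0123 in this tumor and 0.359 in GTML tumor 2, the lowest and the highest of all 14 tumors, with GMYC tumors at 0.0189 to 0.0549.

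The ratio of Evc2 to Evc per kb was 1.42 to 2.22 in the GTML tumors. In GMYC tumors it was 0.426 to 1.01 except in tumor 2, where it was 2.61. These ratios were picked after the levels had been seen and were not tested.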
